A study of Mus musculus with 2 samples.

Results

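Immediate early genes were followed in thawed mouse spleen cells profiled by 2 single-cell amplification methods. The 10 genes were taken by symbol, namely Fos, Fosb, Jun, Junb, Jund, Egr1, Ier2, Dusp1, Nr4a1 and Btg2. They, and the gene lists and markers used below, were chosen with earlier results of these data known. All 10 were listed in both count tables, which together hold 30457 genes. Both libraries came from the same cell suspension, pooled from 3 spleens of female C57BL/6J mice that carried subcutaneous Lewis lung carcinoma. The mice were 10 weeks old when the tumor cells were injected, were given 200 μg of anti-CD4 antibody per dose on days 5 and 9 and were sampled on day 12. Red cells were lysed with ACK buffer, and the remaining cells were frozen in CellBanker 1 and later thawed, and 2000 of them were loaded on a BD Rhapsody cartridge, a nanowell device that captures the RNA of each cell on a barcoded bead. The beads of this cartridge were then split. The TAS-Seq library was amplified after tailing the cDNA with terminal transferase and a chain terminator, and the BD WTA library was made with the manufacturer's random-priming kit. There was 1 library per method, both share the freezing, thawing, tumor and antibody, and no fresh or untreated cells were compared, so differences between the methods or cell classes have no replicate check and no statistical test was run. The labels of these samples describe frozen and thawed cells, whereas the paper also describes a split-bead comparison of fresh spleen cells, and only the labels were followed here.

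Immediate early genes are transcribed within minutes of a stimulus from transcription factors that are already present in the cell, without new protein synthesis. Fos and Jun family proteins pair to form the AP-1 transcription factor, Egr1 and Nr4a1 encode further DNA-binding factors, and Dusp1, Ier2 and Btg2 belong to the same first wave, in which Dusp1 feeds back on the kinases that started it. In lymphocytes the wave follows antigen receptor stimulation, and in tissues prepared for single-cell analysis it is also known as a mark of handling and dissociation.

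Signals for this wave act on promoters, so the bases directly before the transcription start are shown for 4 of the genes that hold the cAMP response element (CRE, TGACGTCA), its shorter core (TGACG) or the EGR site (GCGGGGGCG). Each line comes from the 250 bases before the RefSeq start on GRCm38.p6, 5′ to 3′ on the strand of the gene, without the 47 bases of the Dusp1 window that GENCODE places in an exon, and with matches to these 3 motifs on either strand in capitals.
Fos, chr12:85473640-85473889, plus strand: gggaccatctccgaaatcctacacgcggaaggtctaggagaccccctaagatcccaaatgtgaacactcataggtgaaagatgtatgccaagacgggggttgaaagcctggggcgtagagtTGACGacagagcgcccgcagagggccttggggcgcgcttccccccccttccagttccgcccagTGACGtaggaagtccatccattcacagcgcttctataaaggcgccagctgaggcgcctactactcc
Dusp1, chr17:26508520-26508722, minus strand: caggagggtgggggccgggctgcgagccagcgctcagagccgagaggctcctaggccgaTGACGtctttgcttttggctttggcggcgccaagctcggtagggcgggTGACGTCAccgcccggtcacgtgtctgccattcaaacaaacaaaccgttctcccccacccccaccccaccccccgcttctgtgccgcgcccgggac
Nr4a1, chr15:101266596-101266845, plus strand: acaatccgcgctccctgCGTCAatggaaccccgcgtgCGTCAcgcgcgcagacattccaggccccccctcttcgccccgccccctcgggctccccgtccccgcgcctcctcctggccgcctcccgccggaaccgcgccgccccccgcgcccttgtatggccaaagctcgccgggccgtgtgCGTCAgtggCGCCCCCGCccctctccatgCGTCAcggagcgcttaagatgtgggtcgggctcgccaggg
Btg2, chr1:134079156-134079405, minus strand: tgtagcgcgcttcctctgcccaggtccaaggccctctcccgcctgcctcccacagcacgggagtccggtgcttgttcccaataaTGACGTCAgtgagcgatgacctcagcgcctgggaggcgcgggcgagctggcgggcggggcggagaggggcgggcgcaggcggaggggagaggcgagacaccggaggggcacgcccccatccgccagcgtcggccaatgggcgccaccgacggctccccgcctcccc
For Dusp1 and Nr4a1 the RefSeq start lies inside the longer GENCODE gene model given further on, and for Jund the window ends at 70697738, well before the GENCODE start at 70698949. Windows were searched for 8 of the 10 genes, all but Egr1 and Ier2. The motif counts below therefore say nothing about Egr1 and Ier2. The full CRE was in 2 of these 8, Dusp1 and Btg2, against 1.55% of all 32851 RefSeq windows of this length. The shorter core, which the full CRE contains once on each strand in overlap, was in 6 of 8 (Fos, Fosb, Junb, Dusp1, Nr4a1 and Btg2) against 17.8%. The EGR site was in Fosb and Nr4a1, 2 of 8 against 2.57%. The AP-1 site (TGANTCA) and the CArG box, to which serum response factor binds, were in none of the 8 windows, against 6.75% and 1.47% of all windows. These are matches of letters in 1 window per gene, and Jun and Jund held none of the 5 motifs there. All of the 8 windows but that of Jund (47.6% G and C) were richer in G and C than the median window (52.4%), up to 74.4% in Nr4a1. The part of base composition in these shares was not tested.

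The tables held 736 barcodes for TAS-Seq and 716 for BD WTA, with no barcode in both. After cells with fewer than 500 genes or a mitochondrial share above 0.25 were removed, 732 and 708 cells were kept, with a median of 46557 and 38426 reads and of 3038 and 1679 genes. The 10 genes held 0.508% and 0.576% of these reads. Cells were clustered without the 10 genes and without 74 other early response genes, and clusters were named from marker genes. This gave 406 and 365 B-like cells, 281 and 289 T-like cells, 20 and 26 NK-like cells and 10 and 11 neutrophil-like cells. An unnamed cluster of 15 and 17 cells was led by Fcer1g, Tyrobp, Cst3 and Mpeg1. The B cell markers summed to 9131 and 9281 reads per 1000000 reads of the pooled cells (CPM) in B-like cells and to 179 and 233 CPM in T-like cells, and all 6 neutrophil markers were present in the neutrophil-like cells. T-like cells, although from mice given the anti-CD4 antibody, had 138 and 200.2 CPM of Cd4. Reads were counted without molecular identifiers, and each interval below covers counting error only, of reads for CPM and of cells for shares. The intervals of CPM leave out amplification and the spread over cells, and are too narrow as limits of a class level. For Fos in B-like cells by TAS-Seq the standard deviation over 406 cells was 1524 CPM. Levels are compared for 1 gene across cells and not between genes.

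B-like cells carried more immediate early gene reads than T-like cells in both libraries. Of the 10 genes, 7 were at least 2-fold higher in B-like cells by both methods, namely Fos, Fosb, Jun, Jund, Dusp1, Nr4a1 and Btg2, and none was 2-fold lower. Over all 9042 genes tested, which are those with at least 10 CPM in a pool and reads in 10 cells, 9.3% were 2-fold higher in both libraries and 5.29% were 2-fold lower. The median log2 ratio of B-like over T-like CPM was 1.16 and 1.21 for the 10 genes, against 0.10 and -0.03 for all genes tested. The other 3 genes, Junb, Egr1 and Ier2, were also higher in B-like cells, but by less than 2-fold. Scaling by TMM factors moved the log2 ratios by -0.17 in TAS-Seq and 0.01 in BD WTA and took Fos and Dusp1 below 2-fold in TAS-Seq. The other 5 genes (Fosb, Jun, Jund, Nr4a1 and Btg2) passed under each of the 8 alternatives tried.

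**Figure D1:**
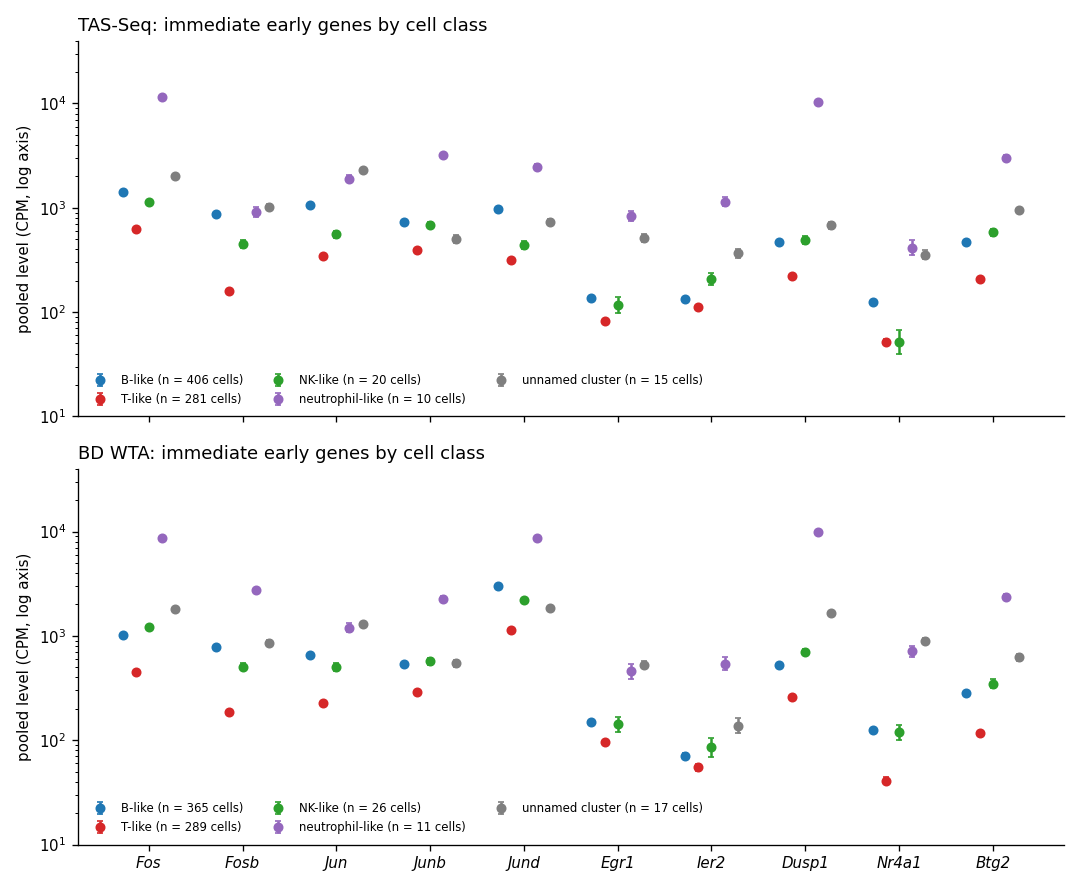
Pooled CPM (log axis) of the 10 genes in each cell class, with TAS-Seq above and BD WTA below; points are CPM of the pooled cells of the class and bars are exact 95% Poisson intervals. For every gene and in both libraries T-like cells were below B-like cells, and the neutrophil-like point was the highest of these 3 classes, though for Fosb by TAS-Seq its interval (821 to 1017) includes the B-like level.

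Fos, on the plus strand of chromosome 12 (85473890 to 85477273, 4 exons in its main transcript), encodes the AP-1 partner that gives the family its name. It had 1404 CPM (95% interval 1388 to 1420) in B-like and 629 CPM (617 to 641) in T-like cells by TAS-Seq. By BD WTA it had 1011 CPM (995 to 1027) and 455 CPM (443 to 466). The log2 ratios were 1.16 and 1.15. At an equal depth of 20000 reads per cell, 76.3% and 67.4% of B-like cells had at least 5 Fos reads, against 52.8% and 39.9% of T-like cells. The median cell had 1057 and 595 CPM in the B-like and 299 and 94.6 CPM in the T-like class, in the same order as the pools.

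Fosb (chromosome 7, 19302696 to 19310051, minus strand), a second Fos family member, had the highest B-like over T-like ratios of the 10 genes. It had 875 and 791 CPM in B-like cells and 159 and 187 CPM in T-like cells in TAS-Seq and BD WTA, log2 ratios of 2.45 and 2.07. Cells with at least 5 reads made up 69.2% and 62.5% of B-like cells and 18.8% and 16% of T-like cells. The T-like reads came from few cells, as the 5 cells with the most Fosb reads held 21.5% and 27.2% of them, against 7.18% and 8.21% in B-like cells.

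Jun (chromosome 4, 95049034 to 95052222, minus strand) encodes the AP-1 partner of Fos and has a single exon. Its levels were 1053 and 661 CPM in B-like and 343 and 229 CPM in T-like cells, log2 ratios of 1.62 and 1.52. Junb (chromosome 8, 84974484 to 84978718, minus strand), a related AP-1 subunit, had 730 and 533 CPM in B-like and 393 and 289 CPM in T-like cells, and its ratios of 0.89 and 0.88 stayed below the 2-fold limit of 1. Jund (chromosome 8, 70698949 to 70700616, plus strand), the family member that is also expressed in resting cells, had 963 and 2991 CPM in B-like and 314 and 1144 CPM in T-like cells. Its B-like over T-like ratios were 1.61 and 1.39, while its levels within each class were higher by BD WTA. Jun, Junb and Jund each overlap a gene on the opposite strand (Junos, Prdx2 and Gm11175), and reads were counted on the forward strand.

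Egr1 (chromosome 18, 34859823 to 34864984, plus strand), a zinc finger factor of the same wave, was present in few lymphocytes. It had 136 and 149 CPM in B-like and 82.1 and 96 CPM in T-like cells, with ratios of 0.72 and 0.63. Only 13.5% and 13.0% of B-like cells and 7.38% and 8.21% of T-like cells had 5 reads of it. Its T-like reads lay in few cells, with 44.1% and 54.3% of them in the 5 highest. Nr4a1 (chromosome 15, 101254269 to 101274795, plus strand), an orphan nuclear receptor that is widely used as a reporter of antigen receptor signaling, had 125 and 126 CPM in B-like and 51.3 and 41 CPM in T-like cells. Its ratios were 1.27 and 1.60, and 17.3% and 15.7% of B-like cells had 5 reads against 6.64% and 5.60% of T-like cells.

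Dusp1 (chromosome 17, 26505590 to 26562128, minus strand) encodes a phosphatase that inactivates MAP kinases. It had 473 and 525 CPM in B-like and 221 and 261 CPM in T-like cells, and its ratios of 1.10 and 1.01 were the closest of the 7 to the limit. It was below 2-fold in at least 1 library under 6 of the 8 alternatives tried, among them equal weights for cells and a mitochondrial limit of 0.1. Its gene model spans the genes AC122252.4 and AC122252.1 on the same strand, from which its reads may not be separable. Btg2 (chromosome 1, 134075170 to 134079120, minus strand), an antiproliferative gene, had 466 and 284 CPM in B-like and 207 and 117 CPM in T-like cells, ratios of 1.17 and 1.27. Ier2 (chromosome 8, 84661331 to 84662852, minus strand), an early response gene with a single exon, was nearest to equal. It had 135 CPM (129 to 140) and 71 CPM (66.9 to 75.3) in B-like cells and 111 CPM (106 to 116) and 55 CPM (51.1 to 59.1) in T-like cells, with ratios of 0.28 and 0.36. Cells with 5 Ier2 reads were 20.1% and 12.1% of B-like and 18.8% and 7.09% of T-like cells.

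No cell class here can be taken to lack these genes, so reads that reach a cell from outside were gauged with lineage genes. At 1 read of 20000, Cd79a of B cells was found in 46.5% of T-like cells by TAS-Seq and in 8.21% by BD WTA, and at 5 reads in 1.85% and 2.99%. Cd3e of T cells was found at 5 reads in 0 of 393 B-like cells by TAS-Seq, which allows a share of up to 0.763%, and in 0.302% by BD WTA. All 10 genes were above these shares at 5 reads in T-like cells of both libraries.

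**Figure D2:**
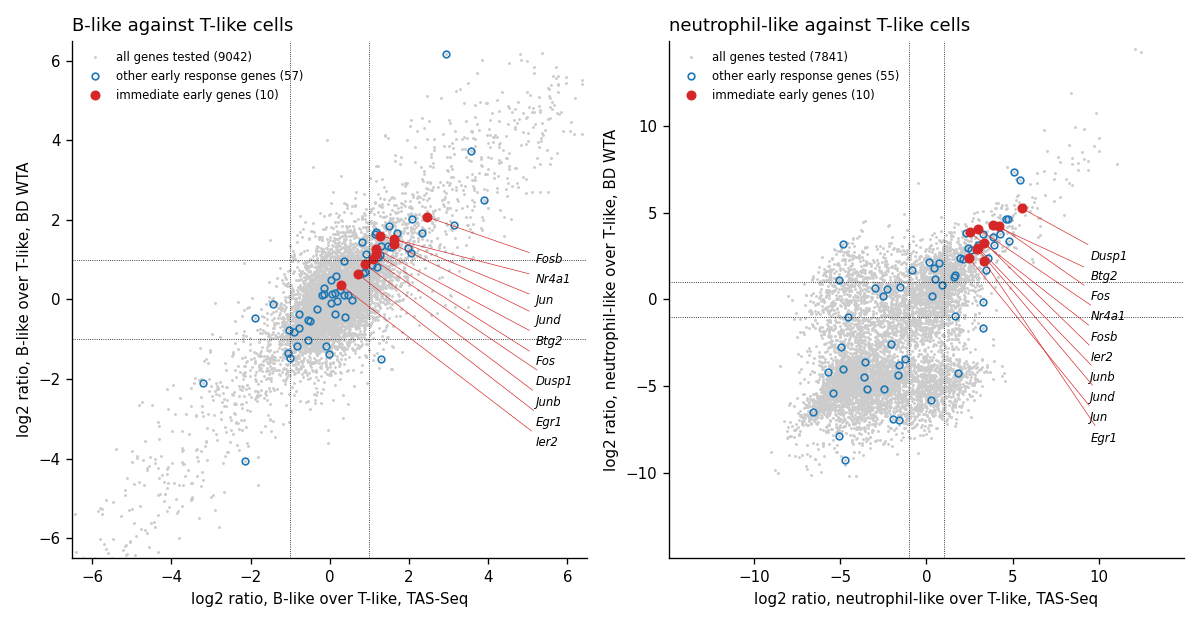
Log2 ratio of pooled CPM for B-like over T-like cells (left) and neutrophil-like over T-like cells (right), TAS-Seq on the horizontal and BD WTA on the vertical axis; red points are the 10 genes, blue circles the other early response genes, gray points all genes tested, and dotted lines mark 2-fold. On the left, where 23 genes lie outside the axes, 7 red points pass both upper lines, and on the right all 10 do.

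The neutrophil-like cells were above the T-like, B-like and NK-like cells for each of these genes. The unnamed cluster was above them for Jun in both libraries (2294 and 1302 against 1902 and 1200 CPM). It was also above them for Fosb by TAS-Seq and for Egr1 and Nr4a1 by BD WTA. In neutrophil-like cells all 10 genes were at least 2-fold higher than in T-like cells in both libraries, with median log2 ratios of 3.17 and 3.57. Over the 7841 genes tested in this comparison 8.37% were 2-fold higher and 51.5% were 2-fold lower in both libraries, with medians of -2.41 and -3.74. TMM scaling moved the ratios by -0.31 and -0.67 and left all 10 past 2-fold. Dusp1 had 10338 CPM (10017 to 10667) and 9974 CPM (9647 to 10310) in neutrophil-like cells, log2 ratios of 5.54 and 5.25 over T-like cells. Fos had 11536 CPM (11196 to 11884) and 8726 CPM (8420 to 9040), ratios of 4.20 and 4.26. These 2 genes were found in every neutrophil-like cell. The 10 and 11 cells held 21.5% and 19.8% of all Dusp1 reads and 9.51% and 10.9% of all Fos reads of their libraries.

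The other members differed in how evenly the neutrophil-like cells shared them. Btg2 had 3010 and 2350 CPM, Junb 3184 and 2253 CPM, and Jund 2449 and 8706 CPM there, and each was found in at least 90% of these cells by both methods. Egr1 had 828 and 457 CPM, Nr4a1 415 and 712 CPM, and Jun 1902 and 1200 CPM, and the 5 highest cells held 96.5% and 100% of the Egr1 reads, 99.4% and 100% of the Nr4a1 reads and 91.2% and 96.9% of the Jun reads. Fosb had 915 and 2730 CPM and Ier2 1143 and 542 CPM. Without the 5 cells with the most reads of each gene, which takes out 5 of the 10 and 11 neutrophil-like cells, Fos, Jund, Dusp1 and Btg2 remained at least 2-fold higher in both libraries.

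NK-like cells had pooled levels above T-like cells for the 10 genes, with Nr4a1 by TAS-Seq nearly equal, at 51.9 against 51.3 CPM and below T-like cells under 5 of 8 alternatives. Egr1 by TAS-Seq was also below when each library was clustered alone. In NK-like cells 3 of the 10 genes, Fosb, Dusp1 and Btg2, were 2-fold above T-like cells in both libraries and none was 2-fold below, against 7.34% higher and 10.9% lower of 8122 genes tested. Btg2 had 582 and 347 CPM in NK-like cells (ratios 1.49 and 1.56), Fosb 450 and 507 CPM (1.5 and 1.43) and Dusp1 490 and 704 CPM (1.15 and 1.43). The ratios of Nr4a1 were 0.02 and 1.52. The NK-like values rest on few cells, since the 5 highest of 20 and 26 cells held 76.8% and 93.8% of the Dusp1 reads, and without them Dusp1, Fosb and Btg2 were no longer 2-fold higher in both libraries. Without the 5 highest cells of each gene 7 of the 10 genes were below T-like cells by TAS-Seq and 5 by BD WTA, Dusp1 at -0.14 and -1.75. This takes out 5 of 20 and 26 NK-like cells but only 5 of 281 and 289 T-like cells, chosen by the reads of the gene. It therefore lowers the NK-like side more, and the same count over all genes was not made. The unnamed cluster differed in its markers between the libraries, as its monocyte or macrophage markers summed to 3283 and 6666 CPM, its plasmacytoid dendritic markers to 2455 and 103 CPM and its erythroid markers to 94.9 and 957 CPM. In it Jun had 2294 and 1302 CPM and Nr4a1 355 and 900 CPM, log2 ratios over T-like cells of 2.74 and 2.5 and of 2.77 and 4.42, whereas Junb was closer to T-like cells, with 0.35 and 0.91.

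Within the lymphocyte classes the genes also varied between clusters. For Fos, Fosb and Jund the lowest of the 4 B-like clusters was above the highest of the 4 T-like clusters in both libraries, and for the other 7 genes the clusters overlapped in at least 1 library. How many of all genes tested have clusters apart in this way was not counted, so this is not shown to be particular to these genes. Among T-like clusters, the one led by Cd8b1 and Cd8a had 116 and 126 CPM of Fosb and 139 and 164 CPM of Dusp1. The small T-like cluster led by Il2rb, Id2 and Ccl5, with 21 and 23 cells, had 341 and 604 CPM of Fosb and 1074 and 917 CPM of Dusp1, its Dusp1 level being above every B-like cluster in both libraries. Among B-like clusters, the one led by Plac8 and Cr2 had the lowest Jund, 721 and 2093 CPM, against 1089 to 1106 CPM and 2998 to 3744 CPM in the other B-like clusters.

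The number of genes positive in the same cell followed the same order. A gene was called positive with at least 5 reads after each cell was thinned to 20000 reads, which left 707 and 645 cells. At least 5 of the 10 genes were positive in 47.9% of cells by TAS-Seq (exact 95% binomial interval 44.2 to 51.7) and in 34.7% by BD WTA (31.1 to 38.5). The shares were 65.1% (60.2 to 69.8) and 47.4% (41.9 to 53) in B-like cells, and 20.3% (15.7 to 25.6) and 14.6% (10.6 to 19.4) in T-like cells. They were 45% (23.1 to 68.5) and 43.5% (23.2 to 65.5) in NK-like cells, and in both libraries all 10 neutrophil-like cells of this depth passed (69.2 to 100). With B-like and T-like cells alone the shares were 46.8% and 32.7%. No gene was positive in 10.3% and 11.9% of T-like cells and in 1.78% and 1.21% of B-like cells.

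**Figure D3:**
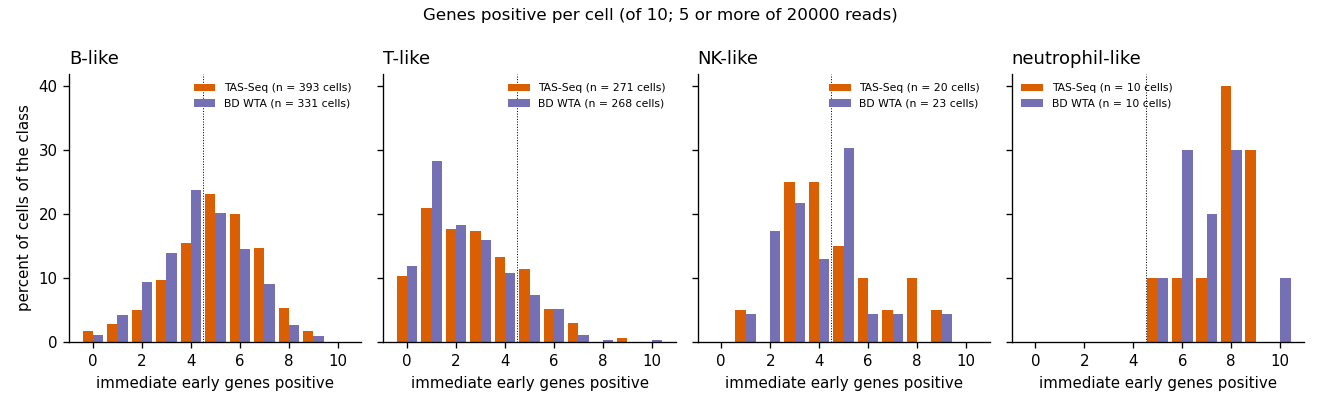
Percent of cells of each class (vertical axis) by the number of the 10 genes positive (horizontal axis) in TAS-Seq (orange) and BD WTA (purple), after thinning to 20000 reads; the dotted line separates cells with at least 5. B-like cells center on 5 and 4 genes, T-like cells on 3 and 2, and all neutrophil-like cells lie to the right of the line.

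Depth and mitochondrial share are given beside this number. In T-like cells the cells with at least 5 positive genes had a median of 53980 and 41114 reads before thinning, against 52812 and 43043 in the others, and a median mitochondrial share of 5.74% and 7.24% against 5.65% and 7.88%. In B-like cells the medians were 45011 and 39139 reads against 40572 and 34877. Spearman correlations of the number with reads per cell were -0.04 and 0.05 over 271 and 268 T-like cells and 0.16 and 0.17 over 393 and 331 B-like cells, as descriptions over cells that share 1 library each. With the mitochondrial share they were -0.09 and -0.23 in T-like cells and 0.03 and 0.01 in B-like cells, and the part of depth and mitochondrial share in these values was not tested. The highest number of positive genes was 9 and 10 in T-like cells and 9 in B-like cells of both libraries.

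Most pairs of the genes were found together slightly more often than the product of their shares gives over all B-like and T-like cells. For each of the 45 pairs, the B-like and T-like cells positive for both genes were set against the number that the product of their shares within each class gives. The median ratio was 1.10 in TAS-Seq and 1.18 in BD WTA, with 41 and 45 of the 45 pairs above 1. Pairs of other genes were not counted, here or within each class below, so the ratios are not shown to be particular to these genes. The product is also taken over whole classes, whose clusters differed in level. In both libraries 2 pairs reached a ratio of 1.5, and both held Egr1. A ratio is capped where a gene is common, as given further on. Egr1 and Ier2 were positive together in 22 and 14 cells, where the product gave 14.4 and 6.76, ratios of 1.53 (0.956 to 2.31) and 2.07 (1.13 to 3.48). Egr1 and Nr4a1 were positive together in 17 and 13 cells against 10.5 and 7.99, ratios of 1.62 (0.943 to 2.59) and 1.63 (0.867 to 2.78). In 3 of these 4 values the exact Poisson interval of the cell count includes a ratio of 1.

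**Figure D4:**
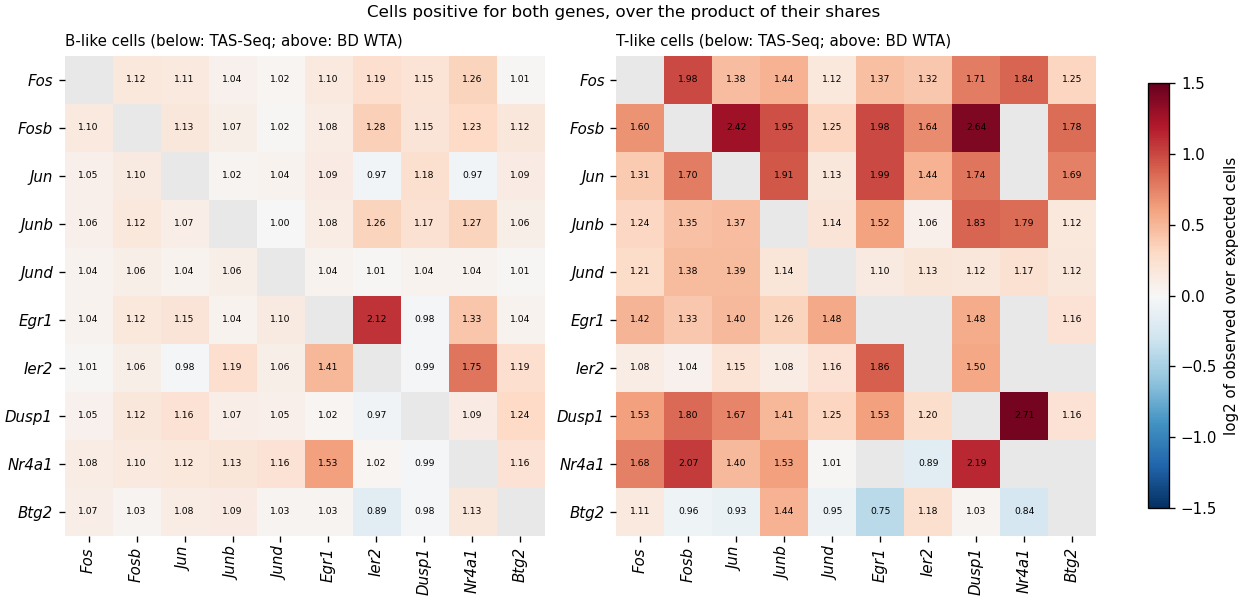
Ratio of the cells positive for both genes to the number given by the product of their shares, in B-like (left) and T-like (right) cells, with TAS-Seq below and BD WTA above the diagonal; color is the log2 of the printed ratio, and gray squares are the diagonal and pairs for which the product gives fewer than 3 cells. Median ratios are 1.06 and 1.09 in B-like and 1.32 and 1.46 in T-like cells.

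Ratios were higher within T-like than within B-like cells. The median was 1.06 and 1.09 over 45 pairs in B-like cells, and 1.32 and 1.46 in T-like cells over the 44 and 38 pairs for which the product gave at least 3 cells. In T-like cells 8 of the 38 pairs for which the product gave at least 3 cells in both libraries reached 1.5 in both. In B-like cells 0 of 45 did, but many of these could not, as given below. This split by class was made after the values were seen. The 8 pairs were Fos with Fosb, Dusp1 and Nr4a1, Fosb with Jun and Dusp1, Jun with Dusp1, Junb with Nr4a1, and Dusp1 with Nr4a1. A ratio is capped where a gene is common, as for Jund, which was positive in 96.1% of B-like cells by BD WTA. In B-like cells by TAS-Seq the ratio could be at most 1.31 for pairs with Fos, 1.44 with Fosb and 1.21 with Jund. None of these pairs could reach 1.5 there, among them the T-like pairs above that hold Fos or Fosb. In T-like cells by BD WTA pairs with Jund were capped at 1.35. The counts of 8 and 0 are therefore not a comparison of the classes. Odds ratios, which are not capped, had medians over 45 pairs of 1.57 and 1.62 in B-like and 1.97 and 2.25 in T-like cells. Spearman correlations of thinned reads between pairs had medians of 0.11 and 0.11 in B-like and 0.13 and 0.14 in T-like cells, which are weak values in sparse counts.

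The pairs with Fos can also be given as shares of T-like cells with and without Fos, from the same cells as the ratios above. Fosb was positive in 30.1% (22.7 to 38.3) of 143 Fos-positive and 6.25% (2.74 to 11.9) of 128 Fos-negative T-like cells by TAS-Seq. By BD WTA it was positive in 31.8% (23.1 to 41.5) of 107 and 5.59% (2.59 to 10.3) of 161. Dusp1 was positive in 35% and 42.1% of the Fos-positive and 9.38% and 13.0% of the Fos-negative T-like cells. Ier2 was positive in 20.3% and 9.35% of Fos-positive and 17.2% and 5.59% of Fos-negative T-like cells. In B-like cells Fosb was positive in 76.3% and 70% of Fos-positive and 46.2% and 47.2% of Fos-negative cells.

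The genes whose reads went most with the number of positive immediate early genes were sought among 1992 other genes with a read in at least 20% of cells, by the mean of 4 Spearman correlations (B-like and T-like cells of each library). Of the 10 genes most alike, 9 were among the 74 other early response genes, of which 25 could be compared. These 9 were Cd69 (0.24), an early activation marker of lymphocytes, Ppp1r15a (0.24), Ier5 (0.23), Zfp36l1 (0.21), Klf6 (0.21), Pim1 (0.20), Dusp2 (0.18), Rhob (0.17) and Nfkbid (0.17). The middle of the 1992 genes was at 0.00 and the 95th percentile at 0.08. The correlations are over cells that share a library and are small, and for Rhob the lowest of the 4 was 0.03. As the lists were chosen with earlier results of these data known, the overlap with them is not independent support.

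Other genes of the early response were grouped by role. Among the 18 other immediate early transcription factors, 9 were tested between B-like and T-like cells, and 6 were 2-fold higher in B-like cells in both libraries and none lower, where 9.3% of all genes tested were higher and 5.29% lower. Egr3, a relative of Egr1, had 137 and 98.4 CPM in B-like and 17 and 0.376 CPM in T-like cells, the last from 5 reads. Klf4 had 318 and 145 CPM against 35.5 and 39 CPM, Csrnp1 129 and 124 CPM against 30.3 and 54.4 CPM, and Per1 82.2 and 29.1 CPM against 33 and 10.8 CPM. Klf2 (log2 ratios 1.22 and 1.06) and Klf6 (1.27 and 1.13) were higher as well. Atf3, a stress-induced factor, was under 20 CPM in both lymphocyte classes and at 579 and 795 CPM in neutrophil-like cells.

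Of the 31 feedback and signaling genes, 27 were tested. In both libraries 10 were 2-fold higher and 2 were 2-fold lower in B-like cells. Over all genes tested 9.3% were higher and 5.29% lower, and the 2 lower genes are near that share. Rhob, a small GTPase, had 176 and 455 CPM in B-like and 14.1 and 33.5 CPM in T-like cells, ratios of 3.56 and 3.73. Gem followed with 3.9 and 2.5, Zfp36l1 with 2.08 and 2.02, and Zfp36, which destabilizes AU-rich mRNAs, with 1.71 and 1.68. Dusp10 (-3.19 and -2.09) and Socs3 (-2.14 and -4.06) were lower in B-like cells. Nfkbia, the inhibitor of NF-κB that it also induces, was near equal, at 0.26 and 0.25, and Cd69 was at 0.82 and 1.43.

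Of the 11 heat shock genes 8 were tested and none passed 2-fold in both libraries, with medians of -0.54 and -0.45. Hspa1a had 3.45 and 2.81 CPM in B-like and 0 and 7 reads in all T-like cells. Of 14 regulators of the serum and cAMP response 13 were tested, with medians of 0.03 and -0.09, and Map2k1 was higher (1.47 and 1.34) and Rps6ka1 lower (-1.05 and -1.34) in B-like cells. The counts of the heat shock genes and of these regulators were near the shares over all genes tested (9.3% higher and 5.29% lower). In all, 17 of the 57 tested genes of these lists were 2-fold higher in both libraries, a larger share than the 9.3% over all genes tested. Lower in both were 3 of the 57, near the 5.29% over all genes tested. The lists were chosen with earlier results of these data known, so these shares are not independent of the data.

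Between methods the levels of 9 of the 10 genes differed by less than 2-fold. The comparison is between different cells of the same suspension, as no barcode was in both libraries. Sampling of cells was therefore not separated from the method. Over all cells Jund alone passed 2-fold, with 686 CPM by TAS-Seq and 2210 CPM by BD WTA, a log2 ratio of -1.69. Over 10028 genes tested, 14.4% passed 2-fold either way, 9.05% higher and 5.33% lower in TAS-Seq, and 1 of 10 is near this share. The lower Jund level was seen in each named class, from -1.63 in B-like to -2.34 in NK-like cells.

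Ier2 was nearest to the limit on the other side, with 143 and 72.2 CPM and a ratio of 0.97. Btg2 (0.67) and Jun (0.65) were higher by TAS-Seq, with 399 against 250 CPM and 784 against 500.4 CPM. Fos had 1189 and 896 CPM (0.41), Junb 606 and 451 CPM (0.43) and Fosb 569 and 549 CPM (0.05). Egr1 (-0.13), Dusp1 (-0.26) and Nr4a1 (-0.27) were slightly lower by TAS-Seq over all cells. Nr4a1 was at -0.01 in B-like and 0.32 in T-like cells, and Egr1 at 0.19 with equal weights for cells, so these directions did not hold throughout. The median of all genes tested was 0.10. Within the small classes Fosb was at -1.58 in neutrophil-like cells and Nr4a1 at -1.19 in NK-like cells, and Ier2 was at 1.27 in NK-like and 1.07 in neutrophil-like cells.

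**Figure D5:**
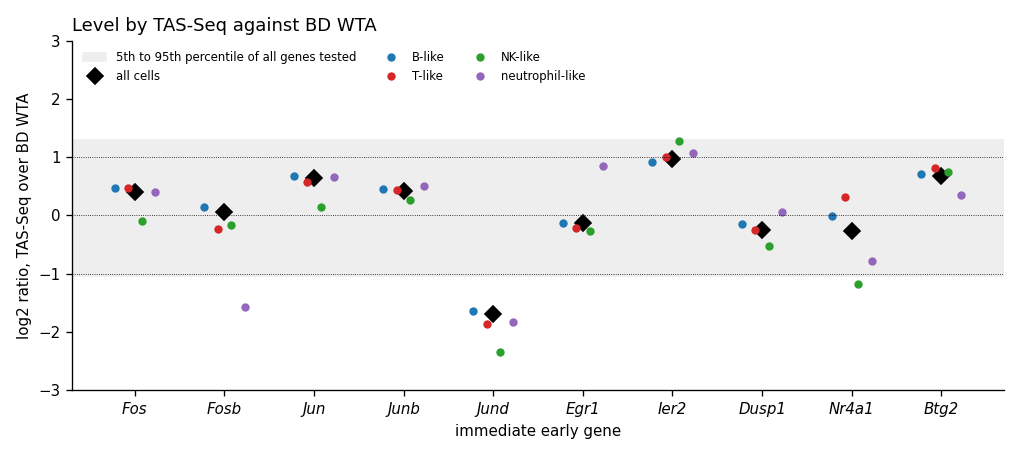
Log2 ratio of CPM by TAS-Seq to CPM by BD WTA (vertical axis) for the 10 genes, over all cells (black diamonds) and within 4 cell classes (colored points); the gray band spans the 5th to 95th percentile of all genes tested, -1.03 to 1.30. Jund is below the band in each class shown, and the other 9 genes lie within it over all cells.

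More cells had a read by TAS-Seq for 9 of the 10 genes, the exception being Jund (91.3% and 92.7%). The same count over all genes was not made. The TAS-Seq cells had more reads (medians of 46557 and 38426) and more genes (3038 and 1679), so this is not shown to be particular to the 10 genes. Before thinning, a Fosb read was found in 80.1% of cells by TAS-Seq and 53.1% by BD WTA, and a Dusp1 read in 71.3% and 44.2%. At 5 of 20000 reads the shares over all thinned cells were closer, at 48.9% and 42.6% for Fosb and 37.5% and 34.7% for Dusp1. In B-like cells they were 69.2% and 62.5% for Fosb and 44.5% and 40.5% for Dusp1. Gaps in B-like cells were wider for Jun (65.9% and 51.4%), Btg2 (49.6% and 31.4%) and Ier2 (20.1% and 12.1%). Jund went the other way (82.4% and 96.1%), and Egr1 was near equal (13.5% and 13.0%). Over T-like cells the Dusp1 share was 22.9% and 24.6%, within the interval of the other library. The larger share with 1 read went with the larger share of T-like cells that had 1 read of Cd79a, and its part in these values was not tested.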

How the data were processed

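Counts are those the authors deposited, read totals for each gene in each barcode, as integers without molecular identifiers. The submitters' processing notes name cutadapt 2.10, Bowtie2 2.4.2 and R 3.6.3, and the methods describe mapping on the forward strand to Ensembl GRCm38 transcripts and keeping barcodes above the inflection point. A background subtraction is described in the methods but is not stated for these tables. The totals were 38656790 reads for TAS-Seq and 31608259 for BD WTA.

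Cells were clustered with scanpy 1.11.5 on 2000 variable genes, scaled within each library, with 20 principal components and Leiden resolution 1, and clusters were named from at least 3 raised markers. Scrublet called 1 doublet per library, which is too few to show that it worked, and doublets were kept. Pooled CPM was compared as log2 ratios with a pseudocount of 1 CPM over genes with 10 CPM in a pool and reads in 10 cells. Intervals are exact Poisson and binomial at 95%. With 1 library per method no test was run. TMM factors came from edgeR 4.0.16 in R 4.3.3. The ratios, pair counts and correlations were tested on simulated data.

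The 10 genes, the lists and the markers were chosen with earlier results of these data known. Named were the 10 genes, up to 5 genes per list by mean ratio among those past 2-fold the same way in both libraries, Klf2, Klf6, Cd69, Zfp36, Nfkbia, Hspa1a and Atf3, and the 10 genes most alike, of which 1 is not reported here. Gene positions are from GENCODE (GRCm38) and promoter windows from RefSeq (GRCm38.p6).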

Additional observations from a re-analysis of the deposited data

Results flagged for a closer look

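The log2 ratios of 2 named genes went opposite ways in the libraries, with at least 1 of them past 2-fold and more than 3 reads in every pool, and the difference was not tested. Atf3 was higher in B-like than T-like cells by TAS-Seq (1.85) and lower by BD WTA (-0.53), with 19.1 and 4.53 CPM in B-like cells. Map2k1 was higher in neutrophil-like than T-like cells by TAS-Seq (1.68) and lower by BD WTA (-0.96), with 10 and 11 neutrophil-like cells behind the values. None of the 10 immediate early genes did so.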

How the results depend on the processing

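The share of cells with at least 5 genes positive depends on depth and threshold. At 10000 reads per cell it was 31.1% (TAS-Seq) and 20.3% (BD WTA), with 1 read for a positive gene 77.8% and 49.3%, with 2 reads 62.2% and 43.6%, and with 10 reads 31.5% and 21.4%. TAS-Seq was above BD WTA under each of these. The pairs reaching the ratio in both libraries went from 2 to 0 at a ratio of 2 and to 0 with 1 read, and to 1 with 10 reads and with cells classed by their own markers. Genes past 2-fold between methods went from 1 to 2, as Ier2 joined Jund without the 5 cells with the most reads of the gene. The same omission took the neutrophil-like count from 10 to 5 (4 higher and Nr4a1 lower) and turned the ratios over T-like cells of Jun (-0.031 and -1.32) and Nr4a1 (-2.06 and -4.33) in both libraries and of Egr1 in BD WTA (-5.52), as it takes out 5 of 10 and 11 cells chosen by their reads. From the NK-like class the omission takes out 5 of 20 and 26 cells. There it put 7 of the 10 genes below T-like cells by TAS-Seq and 5 by BD WTA. Of those that had been past 2-fold it turned Dusp1 (-0.14 and -1.75), and in BD WTA Jun (-0.28) and Nr4a1 (-4.33). The B-like count of 7 stayed between 5 and 8 and the NK-like count of 3 between 2 and 3 over 8 alternatives each, but without those 5 cells the 2 NK-like genes were Egr1 and Nr4a1, both lower, and the other lists' 20 between 16 and 24. The neutrophil-like alternatives, another draw of reads and the restriction to lymphocytes were chosen after seeing the data. No paired analysis was possible because there is a single library per method. Few NK-like and neutrophil-like cells limit those values.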
